A study of Mus musculus with 6 samples.

Results

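Cholesterol synthesis genes of the mouse hippocampus were examined at 2 ages. The group was defined by name as Hmgcs1, Sqle, Fdft1, Lss, Cyp51, Dhcr7 and Insig1, and all 7 were present among the 16703 genes of the deposited table. Of these, 6 encode enzymes that build cholesterol and Insig1 encodes a regulator of the pathway. No receptor for cholesterol uptake is among the 7, and uptake genes were therefore described from a separate list. Each RNA-Seq library came from the hippocampus of 1 male mouse of the inbred strain C57BL/6. The young group held 3 mice aged 3 months and the aged group 3 mice aged 20 months, all fed freely, with no treatment or transgene named. The replicates of each age were chosen after a qPCR assay whose criterion is not stated, so they are not a random draw of mice. Values are given in CPM, counts scaled to the library total.

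Cholesterol hardly crosses the blood-brain barrier, so the brain makes its own. Acetyl-CoA units are joined and reduced to mevalonate, built up into squalene, closed into lanosterol and trimmed to cholesterol. The genes of this chain share a control: when sterols in the endoplasmic reticulum run low, the escort protein Scap carries the transcription factors SREBP to the Golgi, where they are cut free to enter the nucleus. When sterols are plentiful, Insig proteins hold Scap back, and Insig1 is itself a target of SREBP. In the adult brain, astrocytes and oligodendrocytes are regarded as the main producers, and most brain cholesterol lies in myelin.

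The promoters of the members are shown for the sequence elements that this shared control is known to use. RefSeq windows of 300 bases (GRCm38.p6, 250 bases before to 50 after a start site) were found for 5 of the 7 genes (not Sqle and Fdft1), with 7 windows in all because Dhcr7 has 3. The sterol regulatory element TCACNCCAC, searched like the other motifs on both strands, matched in 1 of the 7 windows, that of Hmgcs1, and in 1.24% of 32851 mouse promoter windows. The CCAAT box of NF-Y, a cofactor of SREBP, matched in 5 of the 7, against 37.4% of all windows. The GC box GGGCGG matched in 6 of the 7 (35.7% of all) and the E box CACGTG in 2, those of Dhcr7 and Insig1 (7.15% of all). No match of 1 motif overlapped a match of another in these windows. The following stretches of 30 bases carry in capitals the sterol regulatory element of Hmgcs1 and, for each of the 5 genes, the CCAAT box nearest before the start site (ATTGG where it lies on the other strand). A match describes letters and not binding.
Hmgcs1 sterol regulatory element (chr13:119690203-119690232, plus strand): acgtcaccgtcTCACCCCACttcccaggtc
Hmgcs1 CCAAT box (chr13:119690293-119690322, plus strand): gtccccgcctctcATTGGctgaaagcggat
Lss CCAAT box (chr10:76531530-76531559, plus strand): tggtgatgctctgATTGGccgagctcgcat
Cyp51 CCAAT box (chr5:4104710-4104739, minus strand): ccgctgtccgccaCCAATctggtcctgaga
Dhcr7 CCAAT box (chr7:143830152-143830181, plus strand): aaatccacttccgATTGGtcgtctgtgacc
Insig1 CCAAT box (chr5:28071183-28071212, plus strand): ccgccctcctcccATTGGctccggcggcct
The box lies at position -43 from the start site in Hmgcs1, -60 in Lss, -27 in Cyp51, -47 in Dhcr7 and -214 in Insig1.

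The deposited values are log2 CPM of counts from which the authors had removed 1 factor of unwanted variation. Their totals (15238190 to 17548247 per library) are therefore not sequencing depth, which the values do not hold, and the SDs below describe the spread after that removal. Aged replicates 2 and 3 differed by less than counting noise (0.561 times its variance, against 1.42 to 2.94 times for the other pairs within an age). Adjusted counts no longer carry the full counting noise. The removal left 1 weighted sum of the libraries constant across genes of high count. Its largest weights were 0.748 for aged replicate 3 and -0.524 for aged replicate 2, so the removal took most from the difference between these 2. The value of a gene in 1 library thus nearly follows from those in the others, and the libraries are not fully independent. Aged replicates 2 and 3 were kept as 2 samples, and their mean stood in for both in an alternative fit. Choroid plexus, a neighbouring tissue, was read from 5 markers (Clic6, Folr1, Kcnj13, Kl and Ttr). Their sum lay at 2663 to 2731 CPM in the young mice and at 2461, 314 and 556 CPM in aged replicates 1, 2 and 3, so the aged mice differed widely among themselves. This sum is mostly Ttr (2336 CPM of it in aged replicate 1). Of the 5 markers, aged replicate 1 was within the young range only for Folr1 and below every young mouse for the others, as for Kcnj13 (8.11 CPM, young mice 13.2 to 17.0 CPM), and it lay above aged replicates 2 and 3 for all 5. Neuronal markers summed to 6160 to 6193 CPM in young and 6216 to 6350 CPM in aged mice, and markers of hippocampal excitatory neurons to 993 to 1016 and 946 to 958 CPM, and every marker on both lists was present.

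Of the 7 genes, only Insig1 passed the test between the ages. It was higher in the aged mice by a log2 fold change of 0.24, or 17.9%. The other 6 did not pass: Fdft1 was 14.5% higher, Hmgcs1 6.74% and Dhcr7 8.82% lower, and Sqle, Lss and Cyp51 lay within 3.48% of the young mean. The median log2 fold change of the 7 was -0.02, beside 0.00 over all genes. The test was the moderated test of limma over all 16703 genes, with the removed direction as a term and Benjamini-Hochberg adjustment, and a gene was called at an adjusted p under 0.05. By this rule 331 genes were called, 1.98% of all, of which 200 (1.2%) were higher and 131 (0.784%) lower. A fold change of 1.5 as well was reached by 0.706% of all genes and by none of the 7. In 4 of the 7 genes the aged and young values did not overlap, 2 higher and 2 lower, where 27.2% of all genes did not overlap, 14.5% higher and 12.7% lower.

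**Figure D1:**
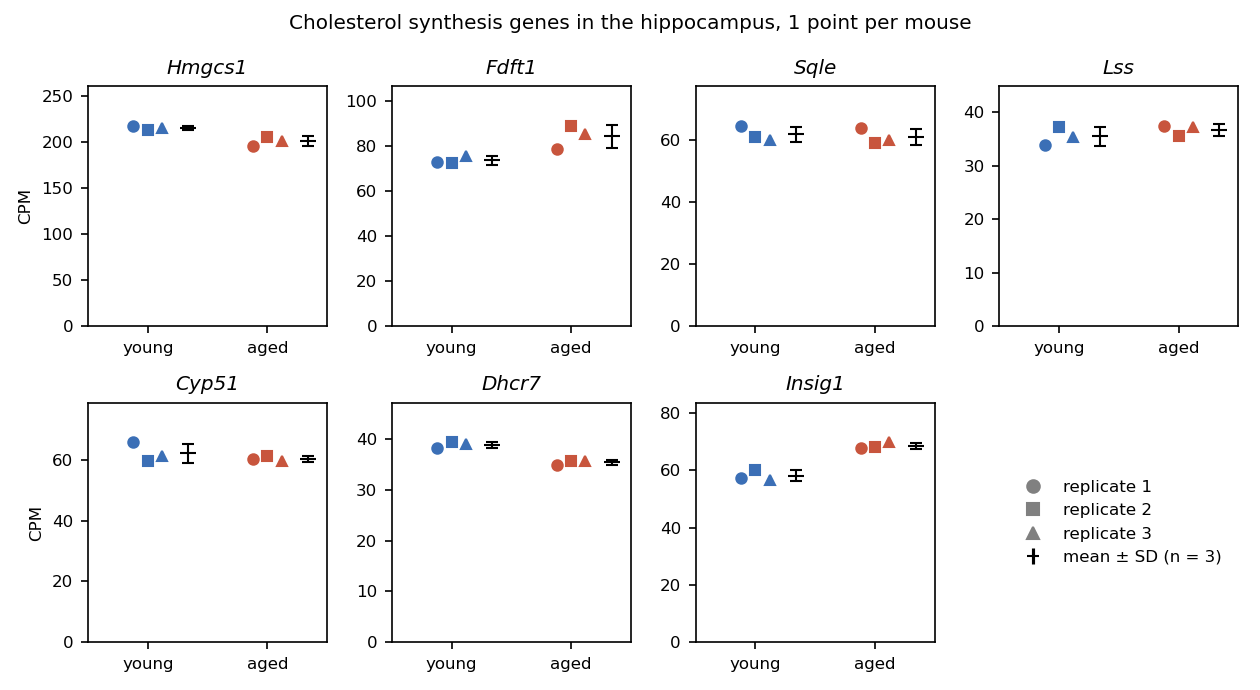
CPM (y axis, from 0) of each of the 7 genes in each mouse, young in blue and aged in red, with the symbol giving the replicate number and the black bar the mean ± SD (n = 3 mice per age). The ages are apart for Insig1 and Fdft1 (aged higher) and for Hmgcs1 and Dhcr7 (aged lower), and mixed for Sqle, Lss and Cyp51.

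Insig1 (ENSMUSG00000045294.12), which retains Scap in the endoplasmic reticulum and so restrains cholesterol synthesis, measured 57.5, 60.2 and 56.6 CPM in the young mice and 67.7, 68.1 and 69.7 CPM in the aged mice. In these adjusted values every aged mouse lay above every young mouse, and the gap between the ages was wider than the spread within either. The removed factor ties the libraries, so the values of an age are not fully independent. The means were 58.1 ± 1.87 and 68.5 ± 1.06 CPM (SD, n = 3 mice per age). The log2 fold change was 0.24 (95% interval 0.12 to 0.36, adjusted p = 0.045 from limma). The call is at the edge of the threshold. In this fit it was lost when any 1 mouse other than young replicate 2 was left out: the adjusted p from limma was 0.20 without young replicate 1, 0.11 without young replicate 3, 0.13 without aged replicate 1, 0.17 without aged replicate 2 and 0.56 without aged replicate 3, at log2 fold changes of 0.23, 0.22, 0.25, 0.24 and 0.17. With the removed direction left out too, it was kept without young replicate 2 or 3 (adjusted p 0.019 and 0.045 from limma). It was then lost without young replicate 1 (0.067) and without aged replicate 1, 2 or 3 (0.051, 0.054 and 0.11). The call was also lost with median scaling (adjusted p = 0.051 from limma), a constant variance prior (0.31), the mean of aged replicates 2 and 3 as 1 sample (0.10) and the choroid plexus markers as a covariate (0.57), at log2 fold changes of 0.21 to 0.24. In a bulk sample, a change in the number of cells of a type and a change in RNA per cell cannot be told apart.

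Insig2, the second Insig protein, was close to level between the ages. It measured 47.4, 45.6 and 44.4 CPM in young and 44.5, 43.5 and 43.6 CPM in aged mice (log2 fold change -0.06, 95% interval -0.20 to 0.08, adjusted p = 0.72 from limma). Set against Insig2 within each library, which leaves the scaling of the libraries out, Insig1 stood at 1.213, 1.321 and 1.277 in the young and 1.521, 1.566 and 1.599 in the aged mice. The ratio was thus higher in every aged mouse than in any young one. It was chosen after the values were seen and carries no test.

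Fdft1 (ENSMUSG00000021273.12), squalene synthase, makes the first intermediate committed to sterols by joining a pair of farnesyl units. It measured 72.8, 72.5 and 75.9 CPM in the young mice and 79.0, 89.0 and 85.6 CPM in the aged mice. The ages did not overlap, and of the aged mice replicate 1 lay closest to the young mice. For Hmgcs1 and Dhcr7 the same mouse lay farthest from them. The log2 fold change was 0.20 (95% interval 0.07 to 0.32), and the adjusted p of 0.12 from limma did not pass. When the choroid plexus markers entered the fit as a covariate, the log2 fold change was 0.07 (adjusted p = 0.88 from limma). That fit was weakened by the correlation of -0.80 between covariate and age. The part of choroid plexus tissue in the difference of Fdft1 was not tested. Fdft1 shares 774 bases of exon, 18.3% of its own, with Ctsb on the opposite strand (GENCODE M21). The library kit marks strand, and whether the counting used it is not given in the sources used here. Ctsb, a lysosomal protease, was at 503 and 529 CPM in young and aged mice (log2 fold change 0.07, adjusted p = 0.40 from limma).

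Hmgcs1 (ENSMUSG00000093930.3), HMG-CoA synthase, works near the start of the chain and was the member with the sterol regulatory element shown above. Its values were 218, 214 and 215 CPM in the young and 195, 206 and 201 CPM in the aged mice. They did not overlap, and the SD was 0.945% of the mean in the young and 2.67% in the aged mice. The log2 fold change was -0.10 (95% interval -0.19 to -0.01), which did not pass once all genes were taken into account (adjusted p = 0.29 from limma). An antisense transcript, Gm48342, shares 12.1% of the exon bases of Hmgcs1 (log2 fold change -0.40, adjusted p = 0.35 from limma).

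Dhcr7 (ENSMUSG00000058454.16) reduces 7-dehydrocholesterol to cholesterol, the closing step of 1 branch of the pathway. It measured 38.1, 39.2 and 39.0 CPM in young and 34.8, 35.7 and 35.6 CPM in aged mice. After the removal of the factor, the values were tight within each age and did not overlap. The log2 fold change was -0.13 (95% interval -0.28 to 0.01, adjusted p = 0.38 from limma).

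The 3 enzymes in the middle of the chain overlapped between the ages. Sqle (ENSMUSG00000022351.15), squalene epoxidase, a rate-limiting step, measured 64.4, 60.8 and 59.8 CPM in young and 63.8, 58.8 and 59.8 CPM in aged mice. Its log2 fold change of -0.02 had a 95% interval of -0.15 to 0.11 (adjusted p = 0.92 from limma), which spans changes of -9.92% to 7.87%. Lss (ENSMUSG00000033105.13), which closes the rings to form lanosterol, measured 33.9, 37.3 and 35.4 CPM in young and 37.5, 35.5 and 37.2 CPM in aged mice (log2 fold change 0.05, 95% interval -0.10 to 0.20, adjusted p = 0.80 from limma). Cyp51 (ENSMUSG00000001467.6), the demethylase that acts on lanosterol, measured 65.6, 59.6 and 61.2 CPM in young and 60.2, 61.2 and 59.4 CPM in aged mice (log2 fold change -0.04, 95% interval -0.17 to 0.08, adjusted p = 0.80 from limma). In each of these genes the young mice spanned a wider range than the distance between the means of the ages.

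The members thus differed in sign, and their sum was nearly level. The 6 enzymes together took 493, 483 and 486 CPM in the young mice and 471, 486 and 479 CPM in the aged mice, a mean 1.77% lower with overlapping values. Within a library, Insig1 stood at 0.264, 0.282 and 0.263 of Hmgcs1 in the young and 0.347, 0.330 and 0.346 in the aged mice. Fdft1 stood at 0.335, 0.339 and 0.353 of Hmgcs1 in the young and 0.404, 0.432 and 0.425 in the aged mice. These ratios pair a gene that was higher with a gene that was lower, were picked for that, and are given as values only.

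Per length, the order of the members was the same at both ages. In CPM per kilobase of exon (GENCODE M21), the young means were 46.9 for Hmgcs1, 18.8 for Insig1, 17.4 for Fdft1, 14.1 for Cyp51, 11.1 for Sqle, 6.67 for Dhcr7 and 3.29 for Lss. The aged means were 43.8, 22.2, 20.0, 13.6, 10.96, 6.08 and 3.41 in the same order. No neighbours in this order overlapped in either age. The nearest were Insig1 and Fdft1, whose closest values were 18.3 and 17.95 in the young and 21.9 and 21.1 in the aged mice. The exon length pools all annotated transcripts of a gene, so a gene with many long isoforms, as Lss (10787 bases), is placed low.

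Across the rest of the synthesis chain, 15 further enzymes were measured and none was called in either direction (adjusted p from limma of 0.15 or more). Together with the 6 members, 12 of the 21 enzymes had positive and 9 negative log2 fold changes, with a median of 0.00. At an unadjusted p under 0.05 from limma there were 3 of the 21, Fdft1 and Hmgcs1 among them, beside 14.9% of all genes. The ages did not overlap in 7 (33.3%, against 27.2% of all genes). Ebp, the sterol isomerase, measured 16.1, 13.8 and 15.1 CPM in young and 12.6, 13.6 and 12.7 CPM in aged mice, which did not overlap (log2 fold change -0.21, 95% interval -0.44 to 0.02, adjusted p = 0.40 from limma). Fdps, which makes the farnesyl units that Fdft1 joins, was at 0.71 and 0.97 CPM in young and aged mice. This was the lowest value per length of the 21 (0.169 CPM per kilobase in the young mice). The extended methods of the authors kept only uniquely mapped reads, so the value need not be the level of the transcript. The log2 fold change of Fdps was 0.43, with a 95% interval of -0.36 to 1.22. The 21 enzymes together took 998 to 1017 CPM in the young and 995 to 1009 CPM in the aged mice.

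**Figure D2:**
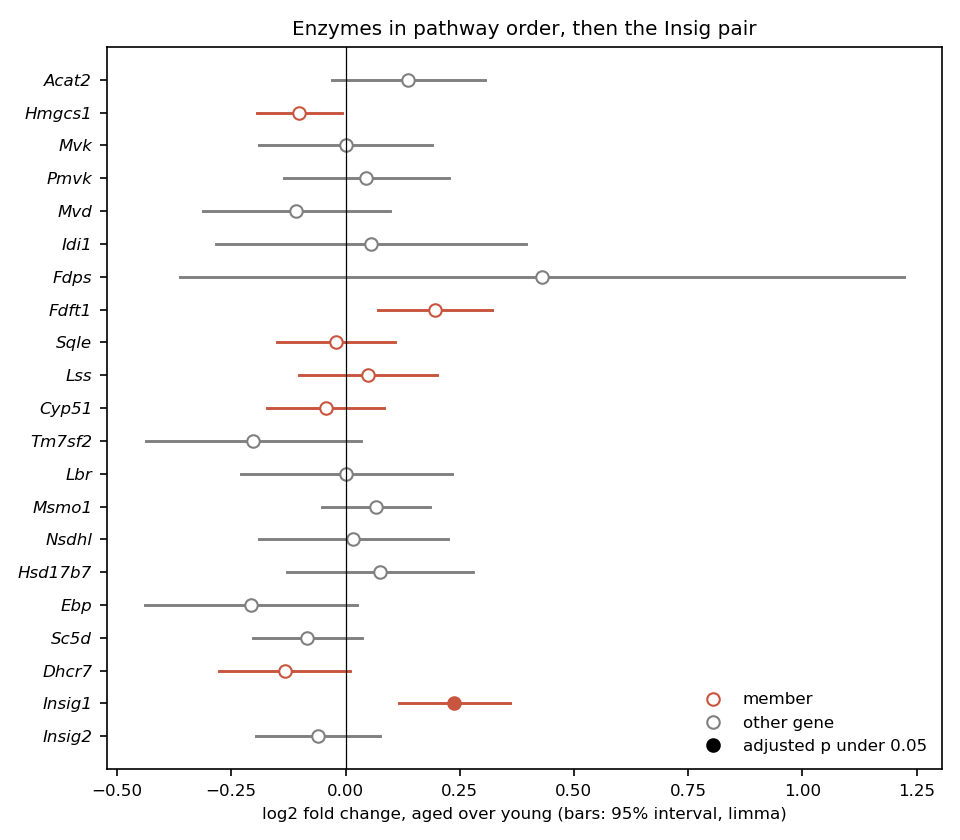
Log2 fold change of aged over young mice (x axis) for 19 of the 21 synthesis enzymes in pathway order from the top, followed by Insig1 and Insig2, with 95% intervals from limma; the 7 members are red, other genes gray, and a filled point has an adjusted p under 0.05. Only Insig1 is filled (0.24), and apart from Fdps (0.43, interval -0.36 to 1.22) every point lies within 0.25 of zero.

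The genes that govern SREBP were not called. Of 14 measured, none passed in either direction, with a median log2 fold change of 0.00. Srebf2, the factor that mainly drives cholesterol genes, measured 244, 256 and 251 CPM in young and 255, 262 and 264 CPM in aged mice (log2 fold change 0.05, 95% interval -0.04 to 0.14, adjusted p = 0.60 from limma). Srebf1, the factor that mainly drives fatty acid genes, had the smallest p of the list, with 72.9, 68.0 and 67.1 CPM in young and 78.2, 78.6 and 77.9 CPM in aged mice (log2 fold change 0.17, 95% interval 0.06 to 0.29, adjusted p = 0.14 from limma). The ages did not overlap for Srebf1, nor for Ubxn8, a membrane protein of the endoplasmic reticulum (log2 fold change 0.20, adjusted p = 0.34 from limma). Scap had a log2 fold change of -0.08 (adjusted p = 0.54 from limma).

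Among SREBP targets of fatty acid synthesis, 1 of 11 was lower and none was higher. Fads2, the delta-6 desaturase of polyunsaturated fatty acids, measured 218, 223 and 232 CPM in young and 199, 197 and 197 CPM in aged mice. After the removal of the factor, the aged mice lay close together and below all young mice (log2 fold change -0.18, 95% interval -0.28 to -0.09, adjusted p = 0.044 from limma). Like that of Insig1, this call was lost in this fit when 1 mouse was left out, here any of the 6 (adjusted p 0.063 to 0.38 from limma, log2 fold change -0.20 to -0.16). With the removed direction left out too, it was kept without young replicate 1, 2 or 3 (adjusted p 0.043, 0.037 and 0.044 from limma). It was then lost without aged replicate 1, 2 or 3 (0.055, 0.060 and 0.097). The call was also lost with upper quartile scaling (adjusted p = 0.067), the mean of aged replicates 2 and 3 as 1 sample (0.083), a constant variance prior (0.38) and the choroid plexus covariate (0.54). The median log2 fold change of the 11 was 0.03. Thus the 2 SREBP targets past the threshold, Insig1 and Fads2, had opposite signs.

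Uptake and trafficking genes showed no call among 15 measured, with a median log2 fold change of 0.03. Gramd1a, which carries cholesterol from the plasma membrane to the endoplasmic reticulum, was at -0.11 and Npc1, which exports it from lysosomes, at 0.13 (log2 fold changes; adjusted p = 0.31 for each from limma). Both had the ages apart.

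On the side of efflux and turnover, Apoe was the 1 gene of 14 to pass, and it was higher. Apoe, the main apolipoprotein of the brain, made largely by astrocytes and also by activated microglia, measured 1678, 1650 and 1736 CPM in young and 1944, 2017 and 1987 CPM in aged mice (log2 fold change 0.23, 95% interval 0.15 to 0.31, adjusted p = 0.0046 from limma). Without aged replicate 3 the log2 fold change was 0.24 and the adjusted p 0.11 from limma. With the removed direction left out too, they were 0.23 and 0.013. The call was also lost with the choroid plexus covariate (0.20, adjusted p = 0.30) and a constant variance prior (0.23, adjusted p = 0.31). The size of the increase was close to that of Insig1, and the difference between these genes was not tested. Cyp46a1, the neuronal hydroxylase by which cholesterol leaves the brain, was at -0.06 (adjusted p = 0.71 from limma). None of the 9 genes of other mevalonate branches was called. The smallest p there were those of Pdss2 (0.23), of ubiquinone synthesis, and Dhdds (0.10), of dolichol synthesis, as log2 fold changes (adjusted p = 0.41 and 0.45 from limma).

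**Figure D3:**
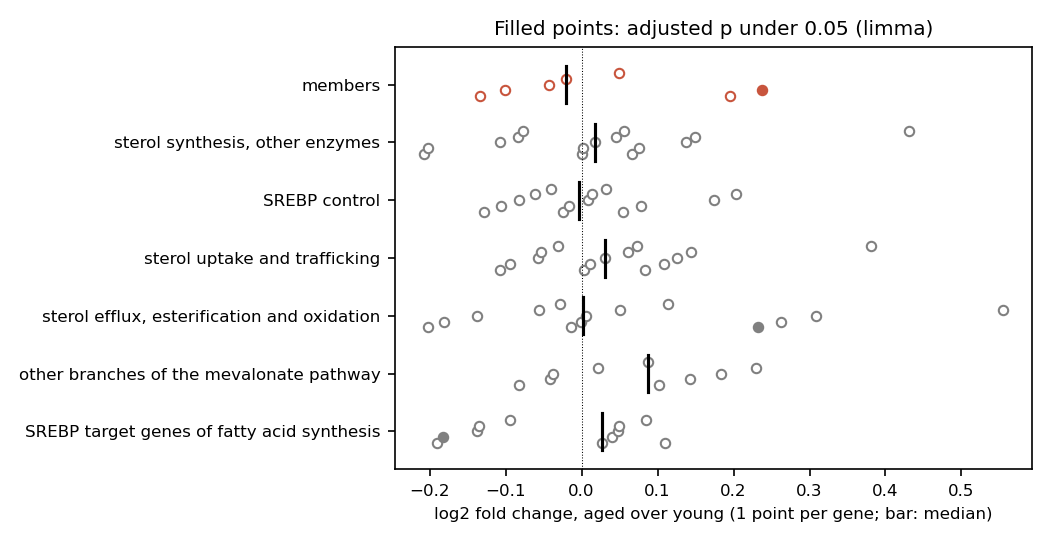
Log2 fold change of aged over young mice (x axis) for each gene of the 7 members (red) and of 6 lists of related genes (gray), 1 point per gene, with the list median as a black bar and filled points for an adjusted p under 0.05 from limma. The medians lie between -0.02 and 0.09, and the filled points are Insig1 (0.24), Apoe (0.23) and Fads2 (-0.18).

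Over the 6 lists, 2 of 78 measured genes were called, Apoe and Fads2, beside 1.98% of all genes, and 15 of 78 (19.2%) had an unadjusted p under 0.05, beside 14.9% of all genes. The share called is near the background. The ages did not overlap in 24 of the 78 (30.8%, beside 27.2%).

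Markers of the cells that make cholesterol are given beside these values. The 8 astrocyte markers summed to 4177 to 4538 CPM in young and 4412 to 4509 CPM in aged mice, and none was called. The 8 markers of mature oligodendrocytes and myelin summed to 6125 to 6666 and 6468 to 7514 CPM, with Mobp higher and the rest not called. The median log2 fold change of these 8 was -0.01. The 6 markers of oligodendrocyte precursors and newly formed oligodendrocytes summed to 335 to 377 (young) and 283 to 304 CPM (aged), without overlap. Of these, 2 were called, Gpr17 and Tnr, both lower. The drop of the sum lay mostly in these 2: the mean of Tnr went from 210 to 172 CPM and that of Gpr17 from 58.8 to 35.7 CPM. Pdgfra, Enpp6, Cspg4 and Bmp4 were not called, at log2 fold changes of -0.03, -0.10, 0.11 and -0.78. The sum thus does not stand for each of the 6 markers. The 6 microglial markers summed to 282 to 295 and 345 to 358 CPM, and 3 were higher, Cx3cr1 and Tmem119 among them. The part of these shifts in the differences of Insig1, Fads2 and Apoe was not tested.

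The mean of the 7 centred log2 CPM values ran from -0.02 to 0.02 over the libraries, since members of opposite sign cancel. Among the 10433 genes that averaged 10 CPM or more, likeness to this mean over the 6 libraries was measured by Pearson's r. The 5 most alike were Cnpy3 (0.998), Jade3 (0.997), Nop53 (0.996), Rasgrf1 (0.995) and Atg13 (0.995). They describe 6 points that fall into 2 ages and share the adjustment of the values, and none of the 5 was itself called (adjusted p 0.21 to 0.52 from limma). The nearest gene of the 6 lists was the sterol exporter Abcg1 (0.960, rank 85).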

How the data were processed

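RNA of 6 hippocampi was sequenced by the authors. Per the labels, processing named Trim Galore 0.6.6, STAR 2.7.8a, edgeR 3.32.1 and the build mm39. The authors deposited log2 CPM per library and gene, and, not used here, their own log2 fold change, likelihood ratio score, p-value and FDR. Undone from the log scale (prior count 2), the deposited values were whole to within 1e-08. Over 1791 genes of high count, 1 weighted sum of the libraries was constant to 0.986 times rounding error, as the removal of 1 factor (RUV, named in the extended methods) leaves.

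limma 3.58.1 (R 4.3.3, trended variance) was fitted to the log2 CPM of all 16703 genes with terms for age and for that direction. Residual degrees of freedom were 3 and those of the prior 12.3. The factor came from the same libraries, so p-values may be too small. The fit was tried on simulated data, whose removed factor was drawn at random and was not the direction found here. Members and lists were chosen with earlier results of these data known. Named genes are the members, the called genes of each list (otherwise its 2 of smallest p) and the 5 most alike; Insig2, Fdps, Srebf2, Scap, Cyp46a1, Abcg1, Ctsb and Gm48342, and all ratios and sums, were added after their values were seen. Exon lengths and overlaps came from GENCODE M21 (GRCm38). Some genes counted in the lists are not reported here by name.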

Additional observations from a re-analysis of the deposited data

How the results depend on the processing

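The fit was repeated under 23 alternatives. Insig1 stayed higher in all, at log2 fold changes of 0.17 to 0.27, and kept its call in 10. Its call was lost with median scaling (0.23, adjusted p = 0.051 from limma), a constant variance prior (0.24, adjusted p = 0.31), aged replicates 2 and 3 as 1 sample (0.23, adjusted p = 0.10) and the choroid plexus covariate (0.21, adjusted p = 0.57). With 1 mouse left out it ranged from 0.17 to 0.27, with the removed direction or without it. The number of members called was then 0 to 1, and 0 in the 4 fits named. Fdft1 was at 0.24 (adjusted p = 0.045) without aged replicate 1 and without the removed direction, its 1 call (0.13 to 0.25 with 1 mouse left out). Sqle, Lss and Cyp51, called in no fit, changed sign in some: Sqle was at 0.076 with the choroid plexus covariate, at 0.011 (young replicate 1) and 0.0033 (aged replicate 2) with that mouse and the removed direction left out, and ran from -0.059 to 0.067 with 1 mouse left out, Lss from -0.014 to 0.090 and Cyp51 from -0.077 to 0.032. Hmgcs1 and Dhcr7 stayed lower in all 23 and uncalled. Dhdds was at -0.012 with the choroid plexus covariate.

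Over all genes, 331 were called. The number was 523 without the removed direction, 510 with a replicate block and no removed direction, 65 with the choroid plexus covariate, 0 with a constant variance prior (1881 at an unadjusted p under 0.05) and 89 to 300 with 1 mouse left out. With the removed direction left out too it was 160 (aged replicate 3), 164 (young replicate 1) and up to 422. Deviations from the mean of each age correlated between same-numbered young and aged mice at 0.16, -0.30 and -0.47. The highest correlation, 0.84, was between young replicate 2 and aged replicate 3. The removed factor ties the libraries, so these values cannot show whether the replicate numbers pair the mice. With the replicate block and the removed direction, Insig1 was at 0.24 (adjusted p = 0.0496 from limma). Leaving out aged replicate 3 brings the correlation between age and the removed direction to -0.75. The depth of the libraries is unknown, so counting noise could be set only against the adjusted counts, and no counting interval is given for a gene.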
